A study of Rattus norvegicus with 59 samples.

Results

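Fibroblast collagens and matrix genes were followed here through the nuclear RNA of sorted rat heart nuclei. The 8 genes were taken from a list of gene IDs, chosen with earlier results of these data known: Col1a1 (ENSRNOG00000003897), Col1a2 (ENSRNOG00000011292), Col3a1 (ENSRNOG00000003357), Fn1 (ENSRNOG00000014288), Dcn (ENSRNOG00000004554), Sparc (ENSRNOG00000012840), Postn (ENSRNOG00000012660) and Ctgf (ENSRNOG00000015036). All 8 had rows in both count tables, which share 22938 gene IDs. The symbols come from that list, because the deposited files hold IDs alone. The study set growth of the heart under pressure against growth after training, in nuclei of left ventricles from male Sprague Dawley rats. Sorting used PCM1, a protein of centriolar satellites that labels cardiomyocyte nuclei. The banded group comprised rats of about 170 g that had the ascending aorta narrowed by a suture and were examined after 6 weeks. By the labels, banded rats were retained only when the heart was hypertrophied and not failing. Sham-operated rats went through the operation with the suture left loose. The trained group comprised rats of about 280 g that ran intervals on an inclined treadmill for 6 weeks, and its control group was not trained. No group carried a transgene or a drug treatment by the labels, apart from the anaesthetic and the pain relief given to both surgery groups.

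The extracellular matrix of the heart is made mainly by fibroblasts. Collagen I, built from the Col1a1 and Col1a2 chains, and collagen III, built from Col3a1, form its fibres, while fibronectin and decorin organise them. Matricellular proteins such as Sparc, periostin and Ctgf are secreted regulators that are known to be induced when the heart is loaded or injured, and activated fibroblasts are the textbook source of periostin. Ctgf, named Ccn2 in RefSeq, is a known target of TGF-beta and YAP signalling and is made by cardiomyocytes as well as fibroblasts.

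Each of the 4 groups had 4 libraries of PCM1-positive nuclei with counts, 16 of the 59 samples in the series. The counts of sham replicates 2 and 3 were close to sampling noise of each other. For genes with 21 to 750 counts in both together, their squared difference averaged 1.07 times what counting error alone would give, against 2.70 to 28.2 in the other 23 pairs within a group. They were summed and counted as 1 sample, which left 4 banded and 3 sham samples. Libraries held between 1.82 and 14.4 M counts. The labels do not state that replicates are separate animals, so each p-value reflects the spread of these samples only, part of which may be technical. Banded replicate 1 and sham replicate 1 stood apart: 4.39% and 4.27% of their counts came from 1314 other genes that the authors' deposited table lists as over 8-fold higher in PCM1-negative nuclei, against 0.529% to 1.66% in the remaining libraries. Genes over 8-fold higher in PCM1-positive nuclei supplied 23.5% of counts in banded replicate 1 and 24.6% in sham replicate 1, against 28.9% to 32.6% elsewhere. Results for the surgery groups are therefore given with and without these libraries.

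Between the nuclear fractions, the collagens and decorin ranked near the top of the PCM1-negative side. In the authors' deposited table, Dcn was 28.3-fold higher in PCM1-negative than in PCM1-positive nuclei (log2 fold change 4.82, false discovery rate 4.38e-17), rank 161 of 12848 genes. The same table gave Col3a1 23.1-fold, Col1a1 21.7-fold, Col1a2 20.9-fold and Fn1 9.68-fold higher, and Sparc 7.30-fold higher. Ctgf differed from them, at 1.27-fold (log2 fold change 0.34, false discovery rate 0.418) and rank 5098, and Postn was not listed in the table. In the authors' deposited table, 6 of the 7 listed members were thus higher in PCM1-negative nuclei at a false discovery rate under 0.05, against 27.6% of all genes, and 5 were over 8-fold higher, against 10.3%. The members' median log2 fold change there was 4.39, against 0.04 over all genes. The label of the list therefore matched the non-cardiomyocyte fraction for 6 members and not for Ctgf. PCM1-negative nuclei also include endothelial, mural and immune cells, and fibroblasts among them were not tested apart, since the markers of those cells were not paired with IDs. The table holds no values by library, so these folds carry no error here, and its direction was read from control replicate 1.

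**Figure D1:**
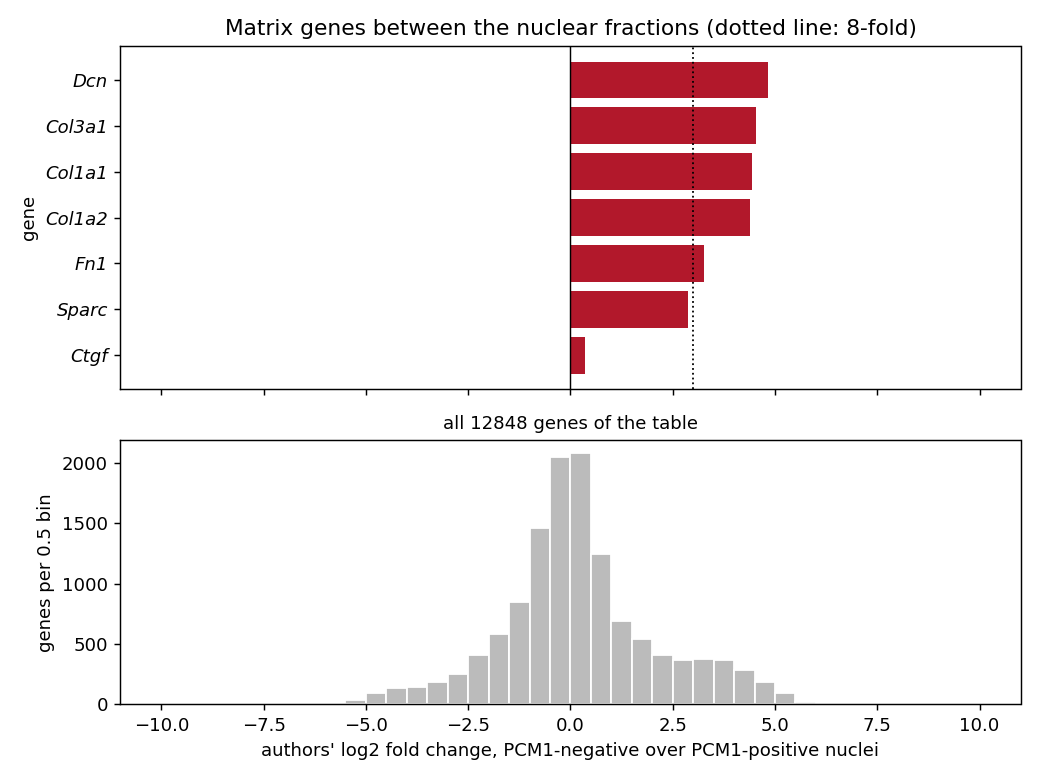
Log2 fold change of the 7 listed matrix genes between PCM1-negative and PCM1-positive nuclei in the authors' deposited table (upper bars) and the number of all 12848 genes per bin of 0.5 on the same axis (lower histogram). Dcn and the 3 collagen genes lie between 4.39 and 4.82, past the dotted line at 8-fold, while Ctgf lies at 0.34 inside the bulk of genes.

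The fibrillar collagen genes were measured in every PCM1-positive library, with the widest spread in the surgery groups. Levels are given in CPM, counts scaled to library size with TMM factors, and genes are compared across libraries, not with each other, because gene lengths were not used. Col3a1 had 225.8, 51.1, 108.5 and 87.8 CPM in banded replicates 1 to 4, against 162.8, 19.8 and 77.7 CPM in sham replicate 1, sham replicates 2 and 3 summed, and sham replicate 4. It had 30.5, 22.9, 26.4 and 27.7 CPM in trained replicates 1 to 4, against 51.0, 34.6, 30.5 and 49.1 CPM in the control ones. The surgery groups overlapped, with replicate 1 highest in each, whereas the trained values all lay below the control values, the nearest of them at 30.51 and 30.55 CPM. Col1a1 had 95.8, 20.6, 56.9 and 35.2 CPM in banded hearts, against 62.6, 5.51 and 41.3 CPM in sham hearts. Col1a2 had 129.9, 26.4, 33.8 and 39.7 CPM in banded hearts, against 77.1, 8.67 and 32.1 CPM in sham hearts. For both chains of collagen I the highest and the second highest surgery library were banded replicate 1 and sham replicate 1, and the lowest was the summed sham pair. Col1a1 averaged 13.1 ± 4.39 CPM in trained and 17.4 ± 4.09 CPM in control hearts (SD, n = 4 each), and Col1a2 averaged 16.7 ± 3.59 and 20.0 ± 8.58 CPM in the same order of groups, with overlapping libraries. Since these are RNA levels of pooled nuclei, more nuclei of a type and more RNA per nucleus cannot be told apart.

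Fibronectin and decorin, which bind cells and collagen fibres, showed the same library pattern with smaller group differences. Dcn had 78.3, 16.2, 9.48 and 32.4 CPM in banded hearts, against 66.7, 10.3 and 26.1 CPM in sham hearts. Its lowest surgery value thus belonged to banded replicate 3 and not to the summed sham pair. In trained hearts Dcn had 17.6, 18.9, 18.5 and 17.8 CPM, against 22.8, 11.2, 11.4 and 21.1 CPM in control hearts, so that the narrow trained range lay inside the control range. Fn1 averaged 13.8 ± 12.8 CPM in banded (n = 4) and 13.3 ± 13.3 CPM in sham hearts (SD, n = 3), and 4.09 ± 0.950 CPM in trained and 4.63 ± 2.01 CPM in control hearts (SD, n = 4 each).

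Among the matricellular genes, Ctgf differed most between banded and sham hearts. Ctgf had 95.5, 129.4, 233.3 and 41.7 CPM in banded replicates 1 to 4, against 45.0, 17.1 and 20.8 CPM in sham replicate 1, the summed sham pair and sham replicate 4. The groups overlapped by 1 library, since banded replicate 4 lay below sham replicate 1, and the highest Ctgf level was in banded replicate 3 and not in replicate 1. Trained hearts had 19.6, 23.9, 8.15 and 6.65 CPM, against 11.7, 32.4, 20.0 and 15.9 CPM in control hearts. Postn was the lowest in counts, with 143, 25, 6 and 14 counts in banded hearts, against 33, 7 and 19 counts in sham hearts. Its level was 12.0, 1.80, 2.28 and 1.36 CPM in banded hearts, against 2.10, 0.633 and 1.50 CPM in sham hearts. In CPM the Postn difference thus sat in banded replicate 1. In the exercise experiment Postn had 1 to 5 counts in trained and 2 to 3 counts in control libraries, close to the smallest stored count of 1, and it did not pass the filter there. Sparc, a collagen-binding glycoprotein, averaged 85.2 ± 37.1 CPM in banded (n = 4) and 84.7 ± 47.3 CPM in sham hearts (SD, n = 3), and 46.8 ± 16.9 CPM in trained and 43.4 ± 15.9 CPM in control hearts (SD, n = 4 each).

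**Figure D2:**
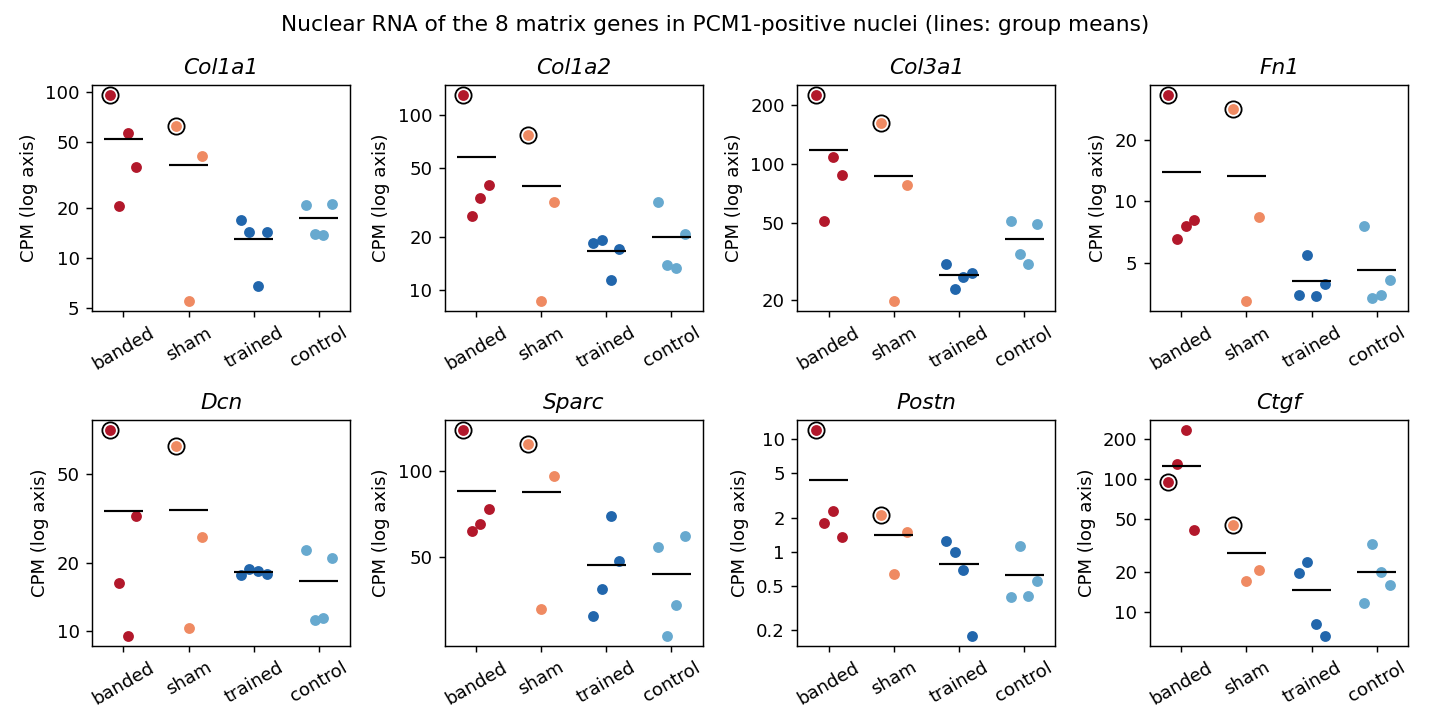
Level of each gene (CPM, log axis) in the 15 samples, with banded, sham, trained and control groups from left to right, points for samples and lines for group means. Ringed points are banded replicate 1 and sham replicate 1; banded replicate 1 is the highest of the 15 samples for 7 of the 8 genes, and Ctgf, highest at 233.3 CPM in banded replicate 3, is the exception.

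The group means followed 1 order for most of the list. They ran, from high to low, in the order banded, sham, control and trained for Col1a1, Col1a2, Col3a1, Fn1 and Ctgf. For Sparc and Postn the order was banded, sham, trained and control, and for Dcn it was sham, banded, trained and control. Neighbours in these orders differed by more than the larger of their SDs in 2 cases only, banded against sham for Ctgf and trained against control for Col3a1. The surgery and exercise rats differed in weight and treatment and were counted in separate tables, so the level of surgery over exercise libraries cannot be told apart from those differences. The 8 genes summed reached 490 ± 233 CPM in banded (n = 4) and 324 ± 236 CPM in sham hearts (SD, n = 3). They reached 141 ± 4.27 CPM in trained and 164 ± 37.6 CPM in control hearts (SD, n = 4 each). The summed difference of 0.60 on the log2 scale between banded and sham hearts was smaller than the within-group SD of 1.02, and that of -0.22 between trained and control hearts was close to its SD of 0.24. Single surgery libraries moved the summed difference: it was 0.24 without banded replicate 1, 1.29 without sham replicate 1, 0.17 without the summed sham pair and 0.93 without both replicate 1 libraries. With sham replicates 2 and 3 kept apart it was 0.88.

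Banding was tested with edgeR's quasi-likelihood test over 12689 genes, adjusted by the Benjamini-Hochberg method. It called 0 of the 8 members, against 0% of all genes called higher and 0.00788% called lower, and DESeq2 and limma voom likewise called 0 members. At an unadjusted p under 0.05, 1 member passed (Ctgf), against 1.84% of all genes. That share is below the 0.05 that would pass if no gene changed, so missing calls here do not show unchanged levels. Ctgf had a log2 fold change of 2.18 ± 0.586 (SE), or 4.53-fold, with an adjusted p of 0.9999 by edgeR. It was the 7th highest fold change and the 18th lowest p of the 12689 genes. Its log2 fold change stayed between 1.68 and 2.82 over all 18 alternatives, including 2.82 without banded replicate 1 and sham replicate 1, and the lowest adjusted p among them was 0.093, with DESeq2. Postn had a log2 fold change of 1.62 ± 0.826 (SE; edgeR adjusted p = 0.9999), which was 0.31 without banded replicate 1 and 0.69 without both replicate 1 libraries.

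The collagens gave smaller and less stable differences with banding. The log2 fold changes were 0.55 ± 0.742 for Col1a2, 0.51 ± 0.735 for Col1a1 and 0.45 ± 0.672 for Col3a1 (SE; edgeR adjusted p = 0.9999 for each). Those of Fn1, Sparc and Dcn were 0.07, 0.01 and 0.01. By the sign of the edgeR value all 8 members were higher in banded hearts, with a median log2 fold change of 0.48, against 48.4% of all genes higher and a median of -0.01. The mean CPM of Dcn went the other way, 34.1 in banded and 34.4 in sham hearts. Banded replicate 1 was the highest surgery sample for 7 of the 8 genes, so the signs are not separate observations. The 1246 tested genes of the PCM1-negative set (of 1314, members left out) had 43.9% higher in banded hearts and a median of -0.04. Every sign but those of Ctgf, Postn and Col1a1 depended on single libraries, and Col1a1 came close to 0. Without banded replicate 1, the log2 fold change was 0.04 for Col1a1, -0.21 for Col1a2, -0.05 for Col3a1, -0.82 for Fn1, -0.32 for Sparc and -0.76 for Dcn. Without sham replicate 1 it was 1.11 for Col1a1, 1.46 for Col1a2, 1.24 for Col3a1, 1.23 for Fn1, 0.37 for Sparc and 0.89 for Dcn. Without the summed sham pair it was 0.0008 for Col1a1, 0.08 for Col1a2, -0.02 for Col3a1, -0.38 for Fn1, -0.37 for Sparc and -0.42 for Dcn. With sham replicates 2 and 3 kept apart it was 0.81 for Col1a1, 0.84 for Col1a2 and 0.74 for Col3a1. In that setting it was 0.34 for Fn1, 0.26 for Sparc and 0.25 for Dcn. Without sham replicate 4 it was -0.16 for Fn1 and -0.14 for Dcn, and without sham replicate 3 it was -0.04 for Dcn. With both replicate 1 libraries left out, the collagens stood at 0.65 for Col1a1, 0.71 for Col1a2 and 0.75 for Col3a1, and the others at 0.35 for Fn1, 0.05 for Sparc and 0.13 for Dcn, with edgeR adjusted p = 0.9997 for each. None of the 8 genes separated the groups in CPM, against 1.49% of all genes with every banded sample above every sham sample and 2% with every one below.

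**Figure D3:**
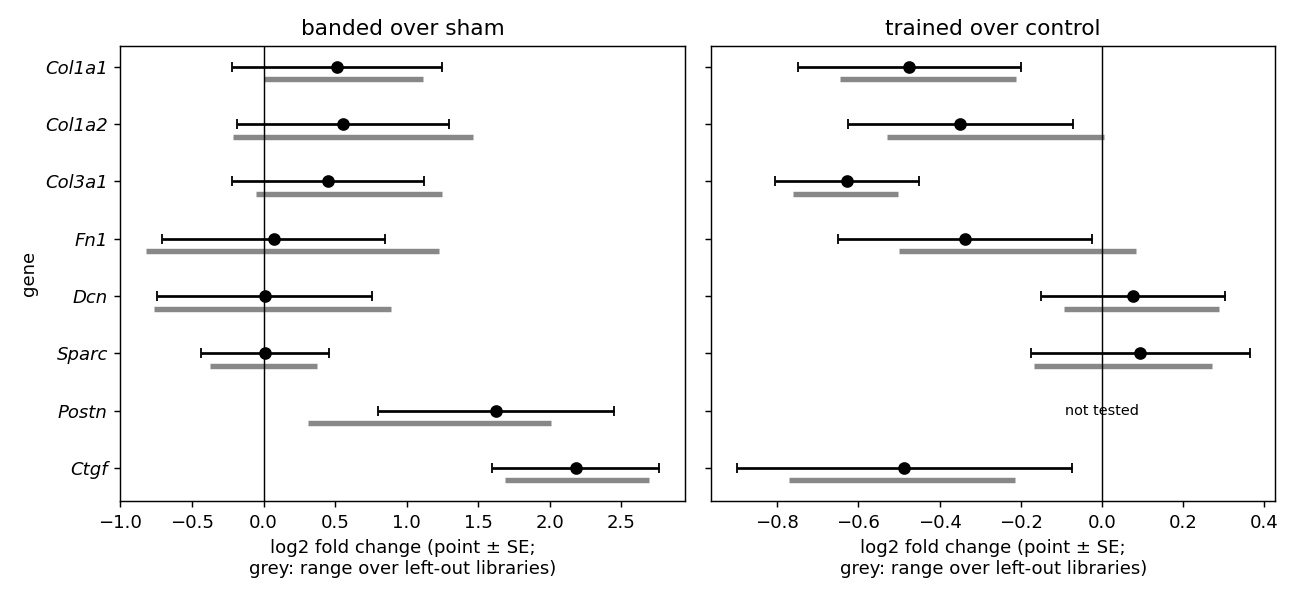
Log2 fold change of each gene with its SE (points and bars) for banded over sham hearts (left) and trained over control hearts (right), and the range when 1 library or the summed sham pair is left out (grey). The grey ranges for Ctgf with banding (1.68 to 2.69) and Col3a1 with training (-0.76 to -0.50) stay on 1 side of 0. Those of Col1a2, Fn1, Dcn and Sparc cross it in both experiments, and that of Col3a1 crosses it with banding. Postn was not tested with training.

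Training was tested over 10815 genes, and 0 of the 7 members that passed the filter were called by edgeR, against 0% of all genes in either direction. At an unadjusted p under 0.05, 1 member passed, against 7.04% of all genes. DESeq2, which called 37 genes, and limma voom called 0 members. Col3a1 was that member: its log2 fold change was -0.63 ± 0.179 (SE), or 0.647-fold, with an edgeR adjusted p of 0.422. Every trained library lay below every control library for Col3a1, the only member without overlap, against 1.98% of all genes lower and 1.96% higher in this way. Its log2 fold change stayed between -0.76 and -0.50 over all 15 alternatives, with adjusted p from 0.164 to 0.764. The other log2 fold changes were -0.47 for Col1a1, -0.49 for Ctgf, -0.35 for Col1a2, -0.34 for Fn1, 0.09 for Sparc and 0.08 for Dcn. The signs of Col1a2 (0.01) and Fn1 (0.08) turned without control replicate 1. The sign of Sparc turned without trained replicate 3 (-0.17), control replicate 2 (-0.05) or control replicate 3 (-0.02), and that of Dcn without control replicate 2 (-0.03) or 3 (-0.09). The median over the 7 members was -0.35, against -0.01 over all genes tested and -0.14 over the 741 tested genes of the PCM1-negative set.

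The difference between the banding and the training effect was tested in 1 fit of all 4 groups over 12650 genes. edgeR called 0 of the 8 members, against 0% of all genes higher and 0.00791% lower, DESeq2 and limma voom also called 0, and 1 member had an unadjusted p under 0.05, against 3.86% of all genes. This share too is below the 0.05 that would pass if no gene changed. For Ctgf the banding effect minus the training effect was 2.64 ± 0.771 (SE) on the log2 scale, with an edgeR adjusted p of 0.9999. It ranged from 2.16 to 3.31 over the 26 alternatives, with adjusted p from 0.271 to 1. Col3a1, Col1a1 and Col1a2 had differences of 1.07 ± 0.731, 0.96 ± 0.838 and 0.88 ± 0.850 (SE), which are little larger than their errors. Without banded replicate 1 these were 0.56, 0.49 and 0.11, without sham replicate 1 they were 1.89, 1.60 and 1.83, and without the summed sham pair they were 0.61, 0.47 and 0.42, in the same order of genes. Without control replicate 1 Col1a2 had 0.54.

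The members were also set against the other PCM1-negative-enriched genes of the same library, a scale added after the CPM values were seen. The share of counts from these 1314 genes averaged 2.05% ± 1.59 in banded (n = 4) and 2.16% ± 1.88 in sham hearts (SD, n = 3), and 0.705% ± 0.122 in trained and 0.781% ± 0.197 in control hearts (SD, n = 4 each). Per 1000 such counts, Col3a1 had 5.87, 5.80, 8.60 and 5.44 counts in banded replicates 1 to 4, against 4.24, 2.99 and 4.96 counts in the 3 sham samples. Col1a2 had 3.37, 3.00, 2.68 and 2.46 counts in banded hearts, against 2.01, 1.31 and 2.05 counts in sham hearts. On this scale both genes had every banded sample above every sham sample, 2 of 8 members against 0.552% of all genes (0.315% lie the other way), and banded replicate 1 no longer stood apart. In CPM 1.49% of all genes separated this way and 2% the other way. Dividing by a share that varies between libraries spreads genes that do not follow it. The share of all genes on this scale is therefore no fair yardstick for members that follow it. Dcn averaged 1.66 ± 0.611 counts per 1000 in banded (n = 4) and 1.65 ± 0.0914 in sham hearts (SD, n = 3), with no such separation. Ctgf had 2.48, 14.7, 18.5 and 2.58 counts per 1000 in banded hearts, against 1.17, 2.58 and 1.33 in sham hearts, so its high values lay in banded replicates 2 and 3. Postn had 0.311, 0.205, 0.180 and 0.0841 counts per 1000 in banded replicates 1 to 4, against 0.0548, 0.0955 and 0.0960 in sham hearts. Its difference on this scale thus included banded replicates 2 and 3, from 25 and 6 counts, and the groups overlapped. With training, Col3a1 had 3.44, 3.57, 4.14 and 3.52 counts per 1000, against 5.29, 4.72, 5.45 and 5.33 counts in control hearts, again without overlap, as in 0.351% of all genes, while 0.814% lie the other way. In CPM these shares of all genes were 1.98% and 1.96%. The share was also used as a covariate in the edgeR fit of banded over sham hearts. The log2 fold change was then 0.67 for Col1a2, 0.64 for Col3a1, 1.39 for Postn and 2.24 for Ctgf, each with an adjusted p of 0.999. At an unadjusted edgeR p under 0.05, these 4 of the 8 members and 510 genes over all genes passed, against 1 and 234 without the covariate. The same covariate gave -0.50 for Col3a1 with training, with an edgeR adjusted p of 0.262.

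Ratios of members to Dcn within a library do not depend on library size, and were also added after the levels were seen. Per Dcn count, Col3a1 had 1.73, 1.21, 1.43 and 1.56 counts in trained replicates 1 to 4, against 2.24, 3.10, 2.68 and 2.32 counts in control replicates 1 to 4. The groups did not overlap, as in 0.869% of all genes on the same scale with trained hearts lower and 0.157% with them higher. Col1a2 had 1.66, 1.63, 3.56 and 1.23 counts per Dcn count in banded hearts, against 1.16, 0.842 and 1.23 counts in sham hearts. The lowest banded ratio (1.22754) and the highest sham ratio (1.22727) nearly touch, and 0.229% of genes separate the same way and 0.118% the other way. Fewer genes separate per Dcn count than in CPM in both experiments, so these shares are no fair yardstick for genes that follow Dcn. Banded replicate 3 had the highest ratios, with 11.44 Col3a1, 6 Col1a1 and 24.6 Ctgf counts per Dcn count, over 25 Dcn counts.

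**Figure D4:**
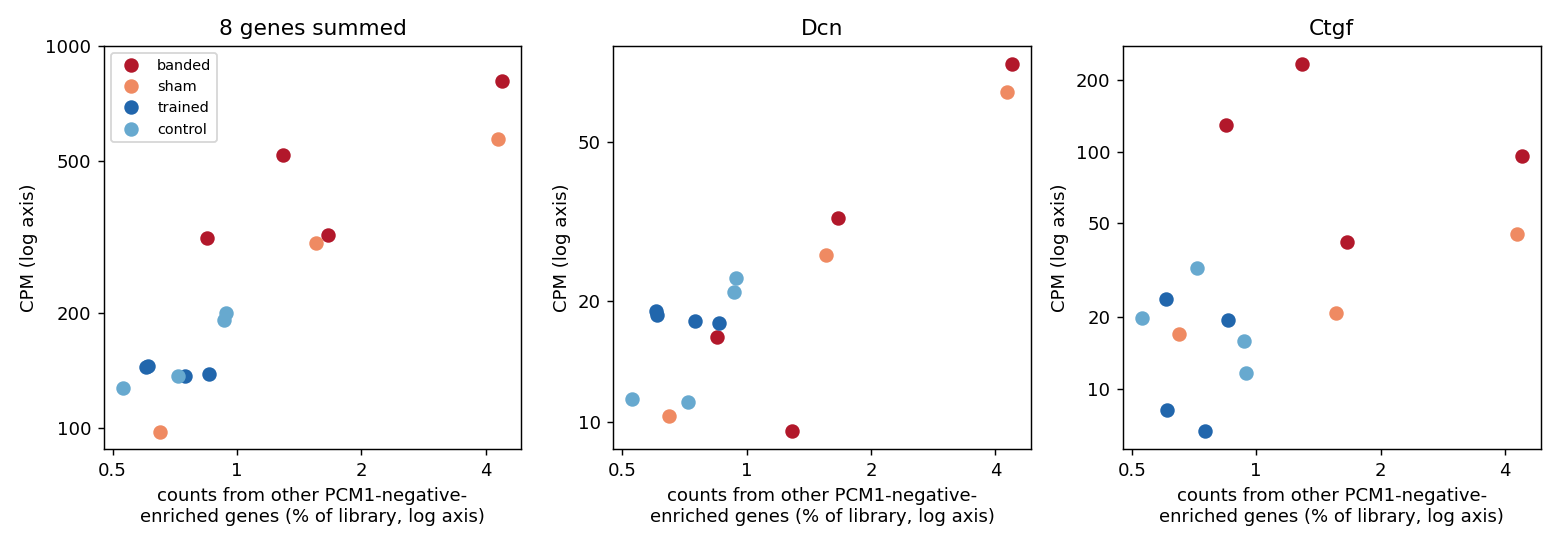
Level of the 8 genes summed, of Dcn and of Ctgf (CPM, log axis) against the share of counts from the 1314 other PCM1-negative-enriched genes (percent of the library, log axis), 1 point per sample. The samples at 4.39% (banded replicate 1) and 4.27% (sham replicate 1) have the highest summed and Dcn levels, while the highest Ctgf levels belong to banded samples at 0.847% and 1.29%.

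The authors' own comparison gave more calls. In the authors' deposited table of log2 RPM (reads scaled to library size, 1 column per group), Ctgf was 6.87 in banded and 4.24 in sham hearts, a difference of 2.63 with a false discovery rate of 1.15e-59. The same deposited table by the authors gave Col3a1 6.66 and 5.61 (3.3e-10), Col1a2 5.24 and 4.34 (2e-07) and Col1a1 5.56 and 4.59 (4.63e-05), each with the banded value before the sham value and the false discovery rate after them. In the authors' deposited table, 5 of the 8 members, Sparc included, were higher at a false discovery rate under 0.05, against 1.46% of 22938 genes, and 0 were lower, against 1.17%. Sparc differed there by only 0.14, at 6.16 in banded and 6.02 in sham hearts (authors' false discovery rate 0.000863). Fn1, Dcn and Postn differed by more in the authors' values, 0.45, 0.37 and 0.86, without passing. In their table of the exercise experiment 0 members passed, against 0.636% of genes higher and 0.632% lower in the authors' deposited values, with Col3a1 at 4.69 in trained and 5.39 in control hearts and a false discovery rate of 0.404. The way libraries were combined for these columns is not stated in the labels or file headers. The fit on counts of each library, in which the spread between libraries enters the test, gave the adjusted p-values reported above. That fit also summed sham replicates 2 and 3, which lowers their weight in the sham mean. With the pair apart, its log2 fold changes with banding were 0.81 for Col1a1, 0.84 for Col1a2, 0.74 for Col3a1 and 2.31 for Ctgf. With the pair summed they were 0.51, 0.55, 0.45 and 2.18. No member was called either way, and the part of this choice in the authors' calls was not tested.

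The 5-prime flanks of Ctgf and Postn, the members with the 2 highest fold changes between banded and sham hearts, are printed here from RefSeq (assembly GRCr8), as the 250 bases before the annotated start. Promoters matched for 4 of the 8 members (Col1a2, Sparc, Postn and Ctgf). Capitals mark 2 motifs searched on both strands, TATAAA and CAGAC, which do not overlap here; the other motif searched, CCAAT, has no match in either sequence.
Ctgf, chr1:22624615-22624864, minus strand: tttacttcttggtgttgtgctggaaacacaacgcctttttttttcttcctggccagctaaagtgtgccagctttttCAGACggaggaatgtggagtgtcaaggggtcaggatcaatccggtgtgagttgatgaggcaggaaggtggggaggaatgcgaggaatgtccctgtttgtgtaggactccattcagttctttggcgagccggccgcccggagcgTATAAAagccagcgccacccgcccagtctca
Postn, chr2:140677811-140678060, plus strand: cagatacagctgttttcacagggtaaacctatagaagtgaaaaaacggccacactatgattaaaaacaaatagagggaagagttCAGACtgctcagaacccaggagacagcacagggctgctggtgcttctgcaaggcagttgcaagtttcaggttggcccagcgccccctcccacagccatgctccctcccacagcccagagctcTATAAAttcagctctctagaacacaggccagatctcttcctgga
In Ctgf, TATAAA begins 31 bases and CAGAC 174 bases before the start, and in Postn they begin 44 and 166 bases before it. TATAAA occurs in 3 of the 4 matched members and in 12.9% of 33469 rat promoters of this length, CAGAC in 4 of 4 and in 42.9%, and CCAAT in 1 of 4 and in 34% of promoters. These counts include Col1a2, whose TATAAA begins 170 bases before its annotated start, so that whether the window holds its promoter was not tested. Without Col1a2 they are 2 of 3 for TATAAA, 3 of 3 for CAGAC and 0 of 3 for CCAAT. These are matches of letters and carry no statement on binding. Values of the histone marks at these genes were not analysed here, since the bins could not be placed on a gene annotation of their build.

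The members' patterns over the 15 samples were compared by the root mean square difference of log2 CPM, after centring each gene on its own mean. Each member was set against the sum of the other 7, so that no gene was compared with itself. Col3a1 lay nearest at 0.339, followed by Col1a2 at 0.406, Fn1 at 0.442, Col1a1 at 0.458 and Sparc at 0.630. Dcn lay at 0.749, Postn at 0.851 and Ctgf farthest at 1.17. The 10793 other genes compared had a median of 0.956 to the sum of all 8, a different target from the sum of the other 7. To the sum of all 8, which includes the member's own level, Col3a1 lay at 0.265 and Ctgf at 0.957. Among pairs, Col1a2 and Fn1 were the most alike at 0.281, and Ctgf and Dcn the least alike at 1.55. The non-members nearest to the sum of all 8 were ENSRNOG00000023561, at 0.238, and ENSRNOG00000031312, at 0.289. ENSRNOG00000023561 had 33.7 ± 15.5 CPM in banded (n = 4) and 29.3 ± 18.4 CPM in sham hearts (SD, n = 3), and 12.7 ± 1.25 CPM in trained and 13.5 ± 3.79 CPM in control hearts (SD, n = 4 each). Both are higher in PCM1-negative nuclei in the authors' deposited table, with log2 fold changes of 3.09 and 3.04.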

How the data were processed

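Nuclear RNA of PCM1-positive nuclei was analysed in 16 libraries of 4 groups. For each gene the authors deposited its raw read counts (whole numbers), per the headers of the files, with a smallest stored count of 1 in every library, which compresses folds of weakly expressed genes. Of the exercise table's rows, 2 without a name repeat the column totals (difference 0%) and were left out. The authors also deposited log2 RPM as 1 column per group with false discovery rates (adjusted p-values), and log2 fold changes with such p-values between PCM1 fractions, per the file headers. The submitters' processing notes list edgeR, R 2.15.1, SAMtools and Bowtie without roles. No source used here states the counting rule, the strand or the genome build, so genes sharing reads with near copies or overlapping genes are uncertain.

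Counts were tested with edgeR 4.0.16 in R 4.3.3 (quasi-likelihood F test, TMM, filterByExpr with a minimum count of 10 and total of 15, Benjamini-Hochberg over all genes tested, threshold 0.05), which was tested on simulated data. DESeq2 1.42.0 and limma 3.58.1 (voom), RLE factors, no filter, 1 subtracted from each count, a replicate block, a share covariate and leaving out libraries were alternatives. SEs were derived from the F statistic. Sham replicates 2 and 3 were summed, less 1 to keep the stored minimum. Python 3.11.15 (scipy 1.17.1, numpy 2.4.6, pandas 2.3.3) handled the tables and matplotlib 3.10.9 the figures. The reference table (47357 genes, GRCr8) carried 0 Ensembl IDs, so lists of other matrix genes and cell type markers could not be matched and were not tested. All 8 members are named, with the 2 genes nearest to their sum. Members and lists were chosen with earlier results of these data known. PCR reads carry no molecular identifiers, so counts may overstate the number of molecules, which was not tested.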

Additional observations from a re-analysis of the deposited data

Results flagged for a closer look

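Banded replicate 1 lay far above the other 3 banded libraries for 4 of the 8 genes: its gap to the nearest library, divided by the group's range, exceeded Dixon's 95% critical value for 4 samples. Its levels there were 129.858 CPM for Col1a2, 33.0501 CPM for Fn1, 140.233 CPM for Sparc and 11.965 CPM for Postn. In total 27 groups of 4 libraries were examined, and chance alone marks about 5% of groups. All 4 marks fall on the library with the largest share of counts from PCM1-negative-enriched genes (4.39%), so they are not separate observations. The part of that share in these levels was not tested.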

How the results depend on the processing

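No member was called in any of the 3 comparisons under any alternative run. The directions of Ctgf and Postn with banding and of Col3a1, Col1a1 and Ctgf with training held under all of them. That of Col1a1 with banding did not turn, but its log2 fold change was 0.0008 without the summed sham pair and 0.04 without banded replicate 1. Signs near 0 turned. For banded over sham hearts, Dcn was -0.0024 with DESeq2 and -0.051 without the filter on low counts, where Fn1 was -0.0021 and Sparc -0.067. Leaving out libraries gave ranges of -0.21 to 1.46 for Col1a2, -0.054 to 1.24 for Col3a1, -0.82 to 1.23 for Fn1, -0.32 to 0.37 for Sparc and -0.76 to 0.89 for Dcn, and without the summed sham pair the values were -0.020 for Col3a1, -0.38 for Fn1, -0.37 for Sparc and -0.42 for Dcn. For training the ranges were -0.53 to 0.0056 for Col1a2, -0.50 to 0.085 for Fn1, -0.17 to 0.27 for Sparc and -0.093 to 0.29 for Dcn. For the difference between both effects they were -0.52 to 1.57 for Fn1, -0.42 to 0.30 for Sparc, -0.15 to 1.60 for Postn and -0.85 to 0.84 for Dcn, and Fn1 was -0.059 without the summed sham pair. There, Sparc was 0.059 with limma voom and 0.15 with the sham pair apart, and Dcn was 0.024 and 0.15 under the same settings and 0.059 without both replicate 1 libraries. The cause of these turns was not tested. Genes called over all genes numbered 1 with banding (2 with DESeq2, 0 with limma voom, 0 to 1 leaving out libraries), 0 with training (37 with DESeq2, 0 to 1 leaving out libraries) and 1 for the difference (4 with DESeq2; 0 with limma voom, with 1 subtracted and with the share covariate; 0 to 1 leaving out libraries).

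With the replicate block and the sham pair apart, the log2 fold change with banding was 2.14 for Ctgf (edgeR adjusted p = 0.406), 1.48 for Postn (0.680), 1.16 for Col1a1 (0.772), 1.07 for Col1a2 (0.506) and 1.05 for Col3a1 (0.672), with the adjusted p in brackets. No member was called under the block, while 5 of 8 members and 792 genes over all genes had an unadjusted edgeR p under 0.05. With the pair apart and no block, 2 members and 420 genes did. With the pair summed and no block, 1 member and 234 genes did, so the rise was not due to the block alone. For the difference between both effects the replicate block gave 0.33 for Sparc, 0.11 for Dcn and 0 genes called over all genes. Deviations of same-numbered libraries correlated at 0.764, 0.506, 0.155 and 0.086 in the surgery experiment, and at -0.038, 0.035, 0.128 and 0.075 in the exercise experiment, while the labels name no shared animal or day. In the surgery experiment 3 of the 4 pairs lay over 0.1, short of the rule that every pair does, and replicate 2 correlated better with another number (0.566), so the block was kept as an alternative.

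Depth limits Postn most, with 1 to 5 counts per exercise library, and 3 sham samples limit every surgery comparison.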

Other observations

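Ctgf made up 27.8% ± 17.9 of the counts of the 8 genes in banded hearts (SD, n = 4; 11.8% to 45.1%) and 10.7% ± 5.85 in sham hearts (SD, n = 3), and 10.3% ± 5.92 in trained and 13.4% ± 8.05 in control hearts (SD, n = 4 each). Sparc made up 18.1% ± 4.37 in banded and 29.0% ± 6.15 in sham hearts. These are shares of 1 sum, so a higher Ctgf share lowers those of the other genes. The mean Sparc level was 85.2 CPM in banded and 84.7 CPM in sham hearts. Without Ctgf, the summed level of the other members differed between banded and sham hearts by 0.30 on the log2 scale, against 0.60 with it.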
